A study of Mus musculus with 7 samples.

Results

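Bile acids are made in the liver, stored in bile and taken back up in the last stretch of the small intestine, the ileum, by a dedicated set of proteins. The apical carrier ASBT (Slc10a2) brings them into the enterocyte, the cytosolic protein IBABP (Fabp6) binds them there, and the heterodimer of OSTα (Slc51a) and OSTβ (Slc51b), with MRP3 (Abcc3), lets them out on the basolateral side. Inside the cell they activate the nuclear receptor FXR (Nr1h4), which induces the repressor SHP (Nr0b2) and the hormone FGF15 (Fgf15), and FGF15 travels to the liver and lowers bile acid synthesis. These 8 genes were chosen by name for this role. They were 8 of the 38293 genes in the deposited count table, where Slc51a and Slc51b stand under their older names Osta and Ostb, and all 8 passed the filter on low counts that left 14869 genes to be tested.

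Ileal RNA was sequenced from 4 mice fed normal cystine (normal cys) and 3 mice fed low cystine (low cys), 1 library per mouse. All were male C57BL/6NRJ mice of 8 weeks old, housed individually and fasted before sacrifice, and all ate a purified high fat AIN93G diet low in calcium in which 40% of the energy came from fat. After 1 week of acclimatization on the control diet, the mice received 2 weeks of either this diet with 0.38% cystine or the same diet with 0.08% cystine, in which alanine took the place of the added L-cystine. The RNA was taken from mucosal scrapings, with epithelial and lamina propria cells, and the muscle wall was not sampled. Replicate numbers only name the mice and do not pair them across the diets.

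Depth ranged from 19712355 to 22412703 counts per library in normal cys and from 14888760 to 21942518 in low cys. Levels are given as CPM, counts scaled to library size after TMM correction, and levels of different genes are compared only as CPM per kb of exon. Differences are log2 fold changes, low cys minus normal cys, from edgeR's quasi-likelihood test over all 14869 genes, and the adjusted p is Benjamini-Hochberg over all of them. Each of the 8 genes, and each ratio between them, also got an exact permutation p (two-sided, 35 splits of the mice into 4 and 3). Its smallest possible value is 0.0286. The biological coefficient of variation within a diet was 25.5%.

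For none of the 8 genes was a difference between the diets detected beyond the spread between mice. In edgeR 0 of the 8 had an adjusted p under 0.05, as had 0.0% of all genes tested, and the smallest adjusted p among the 8 was 0.794. At an unadjusted p under 0.05 there were also 0 of 8, against 5.49% of all genes, and DESeq2 called 0 of the 8 and 16 of all genes at an adjusted p under 0.05. The groups overlapped in all 8 genes, whereas they did not overlap in 6.83% of all genes. The estimates were higher on the low cystine diet for Slc10a2 and Nr1h4 and lower for the other 6, but those of Abcc3, Fabp6, Nr0b2, Slc51a and Slc51b turned positive when libraries were scaled to enterocyte genes, and that of Abcc3 also with total counts. The scaling to enterocyte genes moved the median of all genes to 0.58. Relative to this median the estimates of these 5 genes stayed below 0, from -0.07 for Abcc3 to -0.48 for Fabp6. This scaling divides by the summed counts of 9 enterocyte markers, of which Anpep and Fabp2 make up the largest parts. Fabp2 ran from 2970 CPM in low cys 1 to 19584 CPM in normal cys 4. With TMM the median estimate of the 8 genes was -0.15, against 0.01 over all genes tested, of which 48.8% had a lower estimate. In bulk scrapings, fewer cells of a type and less RNA per cell cannot be told apart.

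**Figure D1:**
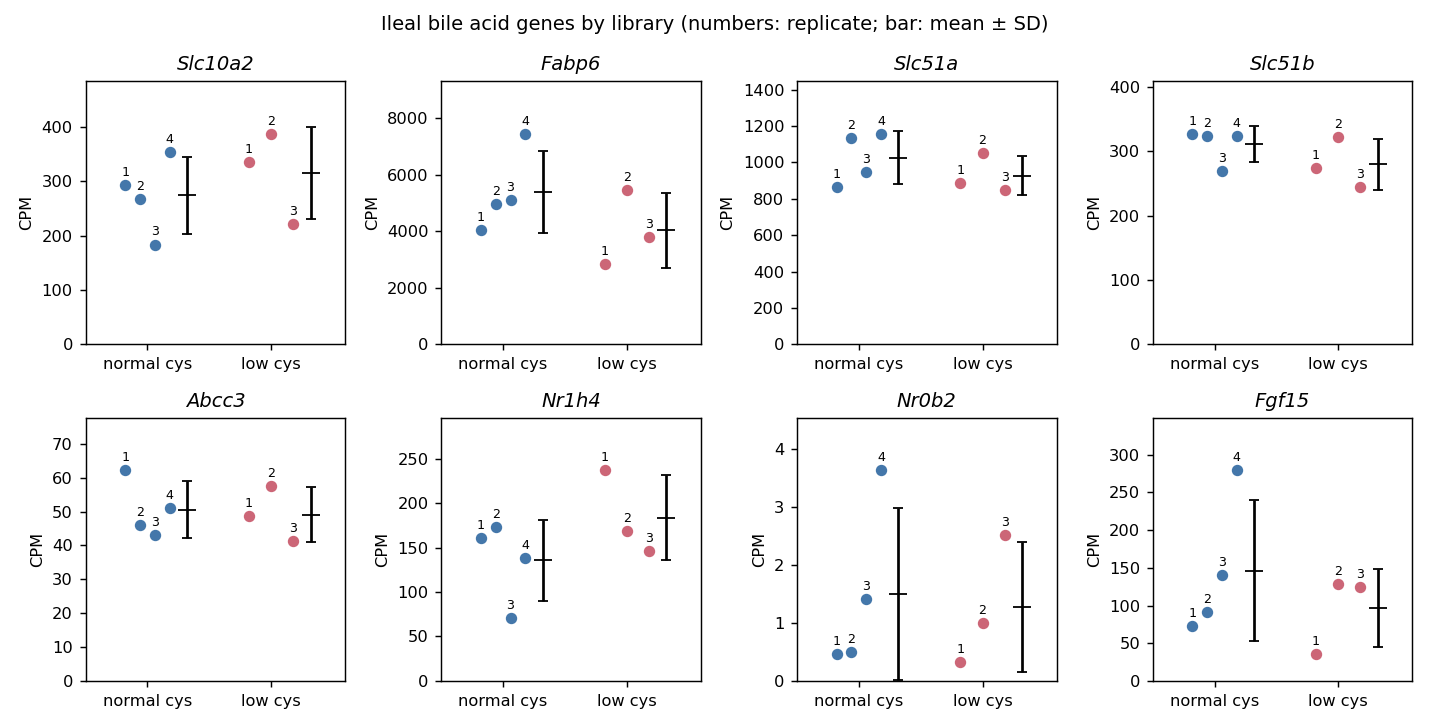
Level of each of the 8 genes in CPM (vertical axes, starting at 0) in the 4 normal cys libraries (blue) and the 3 low cys libraries (red), numbered by replicate, with the mean and SD of each diet as a bar. The diets overlap in every panel, and the points spread least for Slc51b and most for Nr0b2 and Fgf15.

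The 8 genes spanned a wide range of levels per exon length. Fabp6 stood highest, with a mean of 10038 ± 3075 CPM per kb (SD, n = 7), and alone took between 0.318% and 0.696% of all counts of a library. Slc51a and Slc51b followed at 615 ± 81.4 and 611 ± 70.8 CPM per kb (SD, n = 7), a difference within their spread. Slc10a2 had 179 ± 45.1 CPM per kb (SD, n = 7), below both Slc51 genes in every library. Fgf15 (69.0 ± 42.7 CPM per kb, SD, n = 7) and Nr1h4 (67.8 ± 21.5 CPM per kb, SD, n = 7) overlapped, and each lay below Slc10a2 of the same library. Abcc3 reached 8.77 ± 1.33 CPM per kb (SD, n = 7) and Nr0b2 1.24 ± 1.09 CPM per kb (SD, n = 7). Abcc3 lay above Nr0b2 in every library. The short exon models of Fabp6 (479 bases) and Slc51b (488 bases) enter these levels as divisors.

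**Figure D2:**
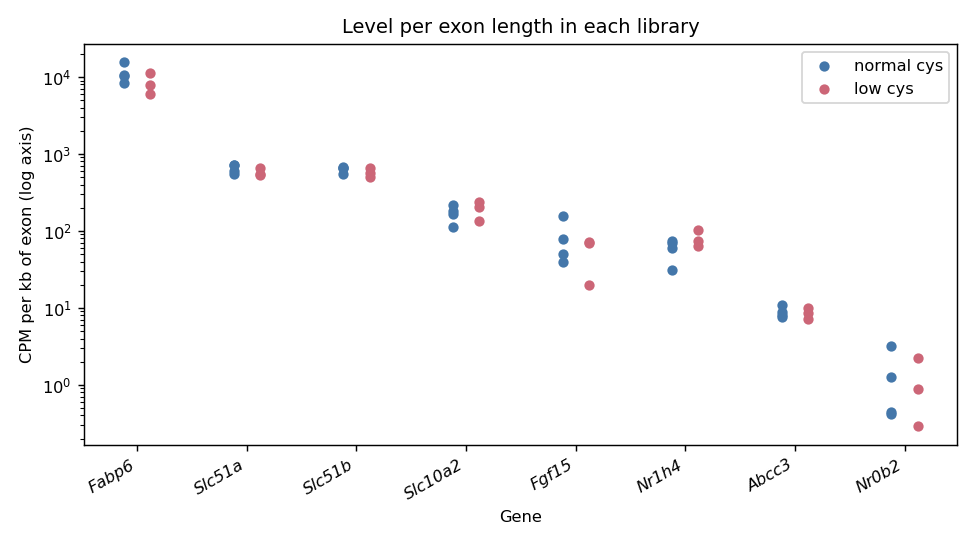
Level per exon length of the 8 genes (CPM per kb, log axis) in each normal cys (blue) and low cys (red) library, ordered by their mean over the 7 libraries. The order runs from Fabp6 at 10038 CPM per kb to Nr0b2 at 1.24 CPM per kb, and Slc51a and Slc51b lie at the same height.

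The promoters of Slc10a2, Fabp6 and Nr0b2 are shown here because they hold the motif matches described next for the carrier, the binding protein and the repressor. Each sequence is the 250 bases before the RefSeq start on GRCm38.p6, written 5′ to 3′ on the strand of the gene. Capitals mark motif matches. In Slc10a2 (chr8:5105288-5105537, minus strand) they mark the match to an HNF1-type palindrome, in Fabp6 (chr11:43601563-43601812, minus strand) the matches to the FXR-type inverted repeat, and in Nr0b2 (chr4:133553126-133553375, plus strand) the matches to an LRH-1-type site.
Slc10a2: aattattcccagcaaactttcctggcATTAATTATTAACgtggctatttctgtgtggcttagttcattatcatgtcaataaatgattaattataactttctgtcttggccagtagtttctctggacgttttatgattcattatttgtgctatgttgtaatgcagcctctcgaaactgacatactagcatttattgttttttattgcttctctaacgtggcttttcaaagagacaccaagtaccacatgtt
Fabp6: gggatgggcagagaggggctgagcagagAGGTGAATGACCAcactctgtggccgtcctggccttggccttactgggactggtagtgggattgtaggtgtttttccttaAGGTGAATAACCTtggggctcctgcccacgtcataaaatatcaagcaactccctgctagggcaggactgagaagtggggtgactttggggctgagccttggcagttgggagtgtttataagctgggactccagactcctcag
Nr0b2: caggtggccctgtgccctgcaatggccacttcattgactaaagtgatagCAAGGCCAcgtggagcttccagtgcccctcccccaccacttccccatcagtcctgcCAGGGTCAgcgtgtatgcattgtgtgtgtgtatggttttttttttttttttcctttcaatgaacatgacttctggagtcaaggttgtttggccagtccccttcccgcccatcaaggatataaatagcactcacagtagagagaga

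RefSeq windows were found for 6 of the 8 genes, and both strands of the same 250 bases were searched in 32851 promoter windows. The FXR-type inverted repeat, AGGTCA and TGACCT with 1 base between them and up to 2 mismatches, occurred in 0.959% of all windows. Among the 6 genes it occurred only in Fabp6, with AGGTGAATGACCA at 222 to 210 bases before the start (chr11:43601772-43601784) and AGGTGAATAACCT at 142 to 130 bases before it (chr11:43601692-43601704). The HNF1-type palindrome, GTTAAT and ATTAAC with 1 base between them and up to 2 mismatches, occurred in 1.24% of all windows. It was found in Slc10a2, as ATTAATTATTAAC at 224 to 212 bases before the start (chr8:5105499-5105511) with 1 mismatch, and in Nr1h4, as GTTAATCAGTAAA at 40 to 28 bases before the start (chr10:89506686-89506698) with 2 mismatches. The RefSeq start used for Nr1h4 lies inside the span of the gene in the count table. The LRH-1-type site, CAAGG followed directly by TCA with up to 1 mismatch, occurred in 19.6% of all windows and in Fabp6, Nr0b2 and Slc51a. Fabp6 held 3 LRH-1-type matches, which the capitals do not mark, at 193 to 186, 135 to 128 and 63 to 56 bases before the start, and the middle one overlapped the nearer inverted repeat. These matches describe letters in these windows, and no binding was measured.

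Slc10a2 encodes ASBT, the sodium-dependent carrier that takes bile acids up from the lumen. The gene (ENSMUSG00000023073) lies on the minus strand of GRCm38 chromosome 8 from 5085623 to 5105232 with 6 exons. Its level was 294, 267, 184 and 354 CPM in normal cys 1 to 4 and 336, 388 and 221 CPM in low cys 1 to 3. Low cys 2 was highest and normal cys 3 lowest, and low cys 3 lay below 3 of the 4 normal cys mice. The means were 275 ± 70.7 CPM (SD, n = 4) on the normal and 315 ± 85.3 CPM (SD, n = 3) on the low cystine diet. The log2 fold change was 0.20 (SE 0.250, 95% interval -0.37 to 0.76, edgeR adjusted p = 0.848, exact permutation p = 0.543). The interval reaches from 0.775-fold to 1.70-fold of the normal cys level. Slc10a2's log2 fold change was 0.04 without normal cys 3 or without low cys 2, and 0.40 without low cys 3.

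Fabp6 encodes IBABP, the small protein that carries bile acids through the cytosol of ileal enterocytes. The gene (ENSMUSG00000020405) lies on the minus strand of chromosome 11 from 43596049 to 43601540 with 4 exons. Its level was 4048, 4953, 5114 and 7454 CPM in normal cys 1 to 4 and 2848, 5459 and 3782 CPM in low cys 1 to 3. Normal cys 4 was highest, low cys 1 and low cys 3 lay below all normal cys mice, and low cys 2 lay above 3 of them. The means were 5392 ± 1452 CPM (SD, n = 4) on the normal and 4030 ± 1323 CPM (SD, n = 3) on the low cystine diet. The log2 fold change of Fabp6 was -0.42 (SE 0.281, 95% interval -1.06 to 0.22, edgeR adjusted p = 0.794, exact permutation p = 0.229). Without low cys 2 the log2 fold change was -0.68 and the groups no longer overlapped (edgeR unadjusted p = 0.0482, adjusted p = 0.714). With that library left out, the groups did not overlap in 19.7% of all genes, and 6.3% had an unadjusted p under 0.05. For Fabp6 the log2 fold change was -0.21 without low cys 1 and -0.22 without normal cys 4. Scaled to the enterocyte genes it was 0.10 (edgeR adjusted p = 0.729).

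Slc51a and Slc51b encode the subunits of the OSTα-OSTβ exporter, which is active only as the pair. Slc51a (ENSMUSG00000035699, chromosome 16 from 32475522 to 32487879, minus strand, 9 exons) had 866, 1137, 947 and 1158 CPM in normal cys 1 to 4 and 888, 1049 and 846 CPM in low cys 1 to 3. Slc51b (ENSMUSG00000053862, chromosome 9 from 65412753 to 65422773, minus strand, 4 exons) had 328, 325, 270.0 and 324 CPM in normal cys 1 to 4 and 274, 323 and 244 CPM in low cys 1 to 3. Low cys 3 was the lowest library for both genes, and low cys 2 the highest of the low cys mice for both. The highest of the 7 libraries was 1.37 times the lowest for Slc51a and 1.34 times for Slc51b, the narrowest spreads among the 8 genes.

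Slc51a averaged 1027 ± 143.5 CPM (SD, n = 4) in normal cys and 928 ± 107.4 CPM (SD, n = 3) in low cys. The log2 fold change of Slc51a was -0.15 (SE 0.166, 95% interval -0.52 to 0.23, edgeR adjusted p = 0.836, exact permutation p = 0.371). For Slc51b the means were 312 ± 27.8 CPM (SD, n = 4) and 280.1 ± 39.7 CPM (SD, n = 3), with a log2 fold change of -0.15 (SE 0.145, 95% interval -0.48 to 0.17, edgeR adjusted p = 0.817, exact permutation p = 0.257). As folds, the 95% intervals ran from 0.697 to 1.17 for Slc51a and from 0.716 to 1.13 for Slc51b. Slc51b shares 91 exon bases with Rasl12 on the other strand, which had 18 to 34 counts per library. The strand setting of the counting is not given in the sources used here, so reads in that stretch cannot be assigned to either gene with certainty.

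Abcc3 encodes MRP3, a basolateral ABC transporter of conjugated bile acids and other conjugates. The gene (ENSMUSG00000020865) lies on the minus strand of chromosome 11 from 94343295 to 94392997 with 30 exons. Its level was 62.2, 46.0, 43.1 and 51.0 CPM in normal cys 1 to 4 and 48.6, 57.5 and 41.4 CPM in low cys 1 to 3. Normal cys 1 was highest and low cys 3 lowest, and the values of the diets interleaved. The means of Abcc3 were 50.6 ± 8.40 CPM (SD, n = 4) and 49.1 ± 8.08 CPM (SD, n = 3). Its log2 fold change was -0.04 (SE 0.166, 95% interval -0.41 to 0.33, edgeR adjusted p = 0.953, exact permutation p = 0.83). The estimate was 0.08 without normal cys 1 and 0.07 without low cys 3, and 0.10 with total-count scaling.

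Nr1h4 encodes FXR, the receptor that binds bile acids in the nucleus. The gene (ENSMUSG00000047638) lies on the minus strand of chromosome 10 from 89454234 to 89533585 with 11 exons. Its level was 161, 173, 70.7 and 138 CPM in normal cys 1 to 4 and 237, 169 and 146 CPM in low cys 1 to 3. Normal cys 3 lay far below the others and low cys 1 above them, while the other 5 libraries lay between 138 and 173 CPM. The means were 135.6 ± 45.6 CPM (SD, n = 4) on the normal and 184 ± 47.4 CPM (SD, n = 3) on the low cystine diet. The log2 fold change was 0.44 (SE 0.295, 95% interval -0.23 to 1.11, edgeR adjusted p = 0.794, exact permutation p = 0.343). Leaving out each library in turn gave 0.22 to 0.59.

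Nr0b2 encodes SHP, a repressor without a DNA-binding domain that is a classical FXR target. The gene (ENSMUSG00000037583) lies on the plus strand of chromosome 4 from 133553376 to 133556536 with 2 exons. It had few counts, 9, 11, 27 and 76 in normal cys 1 to 4 and 8, 16 and 39 in low cys 1 to 3. These counts corresponded to 0.47, 0.50, 1.42 and 3.63 CPM in the normal cys mice and to 0.33, 1.00 and 2.51 CPM in the low cys mice. In each diet the highest mouse had more than 7 times the level of the lowest, 7.72 times within normal cys and 7.70 times within low cys. The log2 fold change was -0.27 (SE 0.849, 95% interval -2.20 to 1.66, edgeR adjusted p = 0.938, exact permutation p = 0.914). Without normal cys 4 the estimate was 0.65 and without low cys 1 it was 0.23. As a fold, the 95% interval ran from 0.218 to 3.16.

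Fgf15 encodes the hormone through which the ileum acts on the liver. The gene (ENSMUSG00000031073) lies on the plus strand of chromosome 7 from 144896532 to 144900953 with 3 exons. Its level was 72.4, 91.4, 140.7 and 279 CPM in normal cys 1 to 4 and 36.3, 128 and 125 CPM in low cys 1 to 3. Normal cys 4 was highest and low cys 1 lowest, a ratio of 7.69, while low cys 2 and low cys 3 lay inside the range of the normal cys mice. The means were 145.9 ± 93.5 CPM (SD, n = 4) on the normal and 96.6 ± 52.2 CPM (SD, n = 3) on the low cystine diet. The log2 fold change of Fgf15 was -0.60 (SE 0.554, 95% interval -1.87 to 0.67, edgeR adjusted p = 0.815, exact permutation p = 0.486). Without normal cys 4 it was -0.07. Fgf15 shares 478 exon bases with the antisense gene AC161763.2, which had 15 to 104 counts and was highest in normal cys 4, the library with the highest Fgf15.

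**Figure D3:**
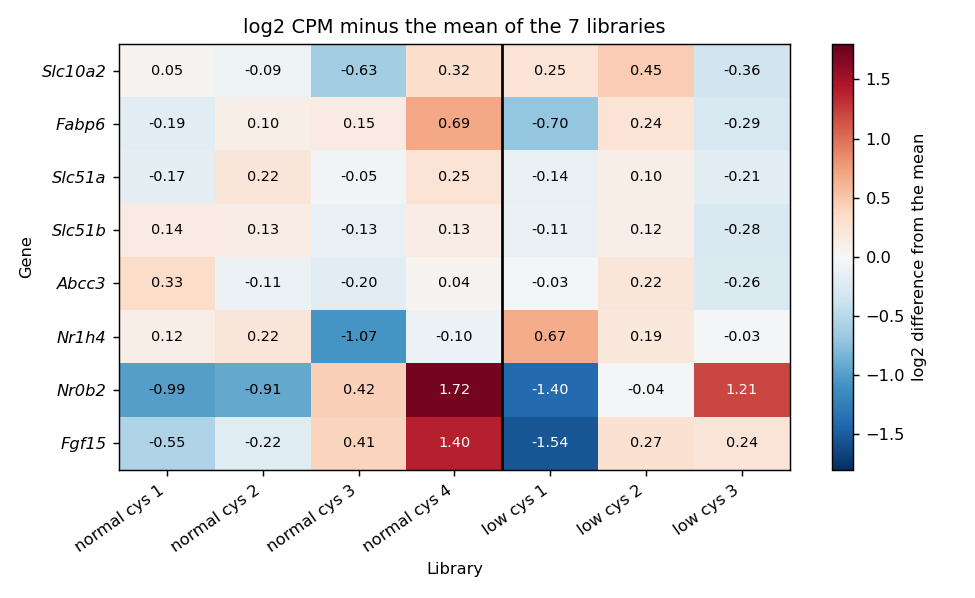
log2 CPM of each gene (rows) in each library (columns) minus its mean over the 7 libraries, with the diets parted by a line and the value printed in each cell. Nr0b2 and Fgf15 have their highest cells in normal cys 4 (1.72 and 1.40) and their lowest in low cys 1 (-1.40 and -1.54), while Nr1h4 has its lowest in normal cys 3 (-1.07).

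The 8 genes varied from mouse to mouse to different degrees. The coefficient of variation over the 7 libraries was 11.6% for Slc51b, 13.2% for Slc51a and 15.2% for Abcc3, the export genes. It was 25.2% for Slc10a2, 30.6% for Fabp6 and 31.7% for Nr1h4. The FXR targets Fgf15 and Nr0b2 varied most, with 61.9% and 87.9%. Nr0b2 had only 8 to 76 counts per library, and the part of counting noise in its spread was not tested. Fgf15 had 279 CPM in normal cys 4, against 140.7 CPM in the next highest library, normal cys 3. Normal cys 4 was the highest library for 4 of the 8 genes, low cys 1 and low cys 3 were each the lowest for 3, and normal cys 3 was the lowest for 2. The 8 genes together took 0.912% of all counts in normal cys 4 and 0.521% in low cys 1.

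Pairs of the 8 genes were compared over the 7 mice by 28 correlations of log2 CPM, with two-sided exact permutation p-values over 5040 orders. Of the 28, 19 were positive, 3 had a Pearson p under 0.05, and 0 had an adjusted p under 0.05 (Benjamini-Hochberg over the 28). Nr0b2 and Fgf15 gave r = 0.89 (permutation p = 0.00377, adjusted p = 0.106) and rho = 0.893 (permutation p = 0.0123, adjusted p = 0.265), and r was 0.81 without the 2 mice farthest from the median of Nr0b2. Fabp6 and Fgf15 gave r = 0.90 (permutation p = 0.0119, adjusted p = 0.167) and rho = 0.857 (permutation p = 0.0238), and r was 0.38 without the 2 mice farthest from the median of Fabp6, over a narrower range, and 0.82 without normal cys 4. Fabp6 and Slc51a gave r = 0.80 (permutation p = 0.0286, adjusted p = 0.267) and rho = 0.786 (permutation p = 0.0480), with r = 0.80 without the 2 mice farthest in Fabp6 and 0.72 without the 2 farthest in Slc51a.

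The coefficients of the receptor gene with these targets were negative, and none passed the adjustment. Nr1h4 and Fgf15 gave r = -0.58 (permutation p = 0.168) and rho = -0.786 (permutation p = 0.0480), with r = -0.74 without the 2 mice farthest in Nr1h4 and -0.56 without the 2 farthest in Fgf15. Nr1h4 and Nr0b2 gave r = -0.51 (permutation p = 0.253) and rho = -0.786 (permutation p = 0.0480), with r = -0.90 without the 2 mice farthest in Nr1h4 and -0.42 without the 2 farthest in Nr0b2. Slc10a2 and Nr1h4 gave r = 0.71 (permutation p = 0.0645) and rho = 0.393 (permutation p = 0.396), and r was -0.04 without the 2 mice farthest in Slc10a2 and 0.10 without the 2 farthest in Nr1h4. All points of these correlations share the library scaling and pool both diets.

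Ratios within a library do not depend on the scaling between libraries. The ratio of Slc51a to Slc51b in CPM per kb was 0.806, 1.07, 1.07 and 1.09 in normal cys 1 to 4 and 0.990, 0.992 and 1.06 in low cys 1 to 3. Apart from normal cys 1, the ratio of the exporter's subunits lay between 0.990 and 1.09 in every mouse. The means were 1.01 ± 0.135 (SD, n = 4) and 1.01 ± 0.0383 (SD, n = 3), a log2 difference of 0.02 (exact permutation p = 1.0).

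The ratio of the cytosolic binder to the apical carrier, Fabp6 to Slc10a2, was 46.9, 63.1, 94.6 and 71.6 in normal cys 1 to 4 and 28.8, 47.9 and 58.1 in low cys 1 to 3. All 3 low cys mice lay below 3 of the 4 normal cys mice, but low cys 2 and low cys 3 lay above normal cys 1. The means were 69.0 ± 19.9 (SD, n = 4) and 44.9 ± 14.9 (SD, n = 3), a log2 difference of -0.63 (exact permutation p = 0.143). After adjustment over the 4 ratios tested, this exact permutation p was 0.495.

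The ratio of hormone to receptor, Fgf15 to Nr1h4, was 0.572, 0.674, 2.53 and 2.57 in normal cys 1 to 4 and 0.195, 0.968 and 1.09 in low cys 1 to 3. Normal cys 3 and normal cys 4 lay high, low cys 1 lay below all others, and the groups overlapped. The log2 difference was -1.09 (exact permutation p = 0.286, adjusted p = 0.495). For Fgf15 to Slc10a2 the ratio lay between 0.222 and 0.710 in normal cys and between 0.0973 and 0.509 in low cys, a log2 difference of -0.80 (exact permutation p = 0.371, adjusted p = 0.495).

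**Figure D4:**
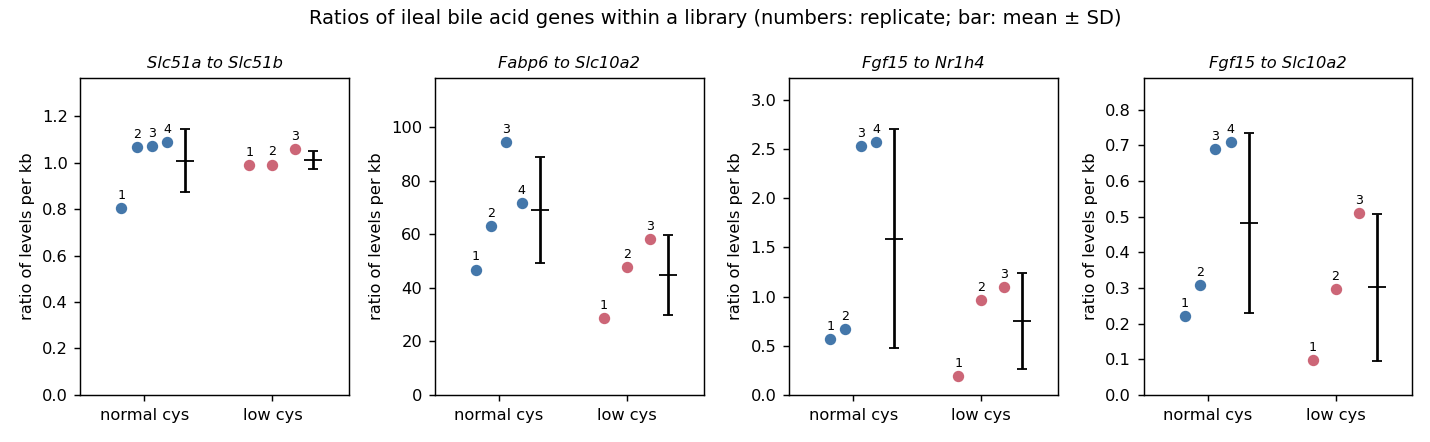
Ratios of levels per kb within each library (vertical axes, starting at 0) for the 4 pairs, in normal cys (blue) and low cys (red), numbered by replicate, with mean and SD as bars. Slc51a to Slc51b stays near 1 except in normal cys 1 (0.806), and the diets overlap in all 4 panels.

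Other genes of the pathway were read from 4 lists of 37 genes, of which 28 passed the filter. In edgeR 0 of the 28 had an adjusted p under 0.05 and the smallest was 0.794. At an unadjusted p under 0.05, 0 were higher and 2 were lower, against 5.49% of all genes in either direction. The groups did not overlap in 2 of the 28, against 6.83% of all genes. The estimates were higher for 8 and lower for 20, with a median of -0.18. Of all genes tested, 48.8% had a lower estimate, and their median was 0.01. By list, the estimates were lower for 10 of 14 receptors and regulators (median -0.12), 1 of 3 membrane receptors and FGF15 axis genes (median 0.04), 6 of 8 other bile acid and sterol carriers (median -0.60) and 3 of 3 genes of bile acid synthesis and modification (median -0.22). These signs are those of the TMM scaling, and scaling to the enterocyte genes moved the median of all genes to 0.58.

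The genes with an unadjusted p under 0.05 were Gata6 and Abcg5. Gata6, a transcription factor of the intestinal epithelium, had 52.5, 49.4, 60.8 and 50.6 CPM in normal cys 1 to 4 and 36.8, 46.1 and 42.5 CPM in low cys 1 to 3, so the groups did not overlap. Its log2 fold change was -0.35 (SE 0.130, edgeR unadjusted p = 0.0237, adjusted p = 0.794). Abcg5, which with Abcg8 forms the sterol exporter of the apical membrane, had 291, 324, 485 and 537 CPM in normal cys 1 to 4 and 199, 332 and 248 CPM in low cys 1 to 3. Low cys 2 lay above 2 of the normal cys mice, and the log2 fold change was -0.66 (SE 0.261, edgeR unadjusted p = 0.0326, adjusted p = 0.794). Its partner Abcg8 had a log2 fold change of -0.57 (edgeR unadjusted p = 0.0518, adjusted p = 0.794).

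Per exon length, the leading gene of each list was Hnf4a, Malrd1, Abcg5 or Cyp27a1. Hnf4a, a nuclear receptor that many enterocyte genes need, had 216 CPM per kb. Malrd1, whose protein raises FGF15 output (under the name Gm13318 in the table, with a short gene model), had 87.5 CPM per kb. Abcg5 had 127 CPM per kb and Cyp27a1, a mitochondrial enzyme that hydroxylates the side chain of cholesterol, had 23.6 CPM per kb. Malrd1 was 80.7 to 112 CPM in normal cys and 75.1 to 78.1 CPM in low cys, so that the groups did not overlap (log2 fold change -0.22, SE 0.144, edgeR adjusted p = 0.794). Cyp7a1, the rate-limiting enzyme of bile acid synthesis, and Slc10a1, the hepatic uptake carrier, had 0 counts in all 7 libraries, and Klb, the co-receptor of FGF15, had 1 to 8. Fgfr4, the receptor that pairs with Klb, had 53 to 135 counts, and Baat, which conjugates bile acids, had 100 to 306.

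**Figure D5:**
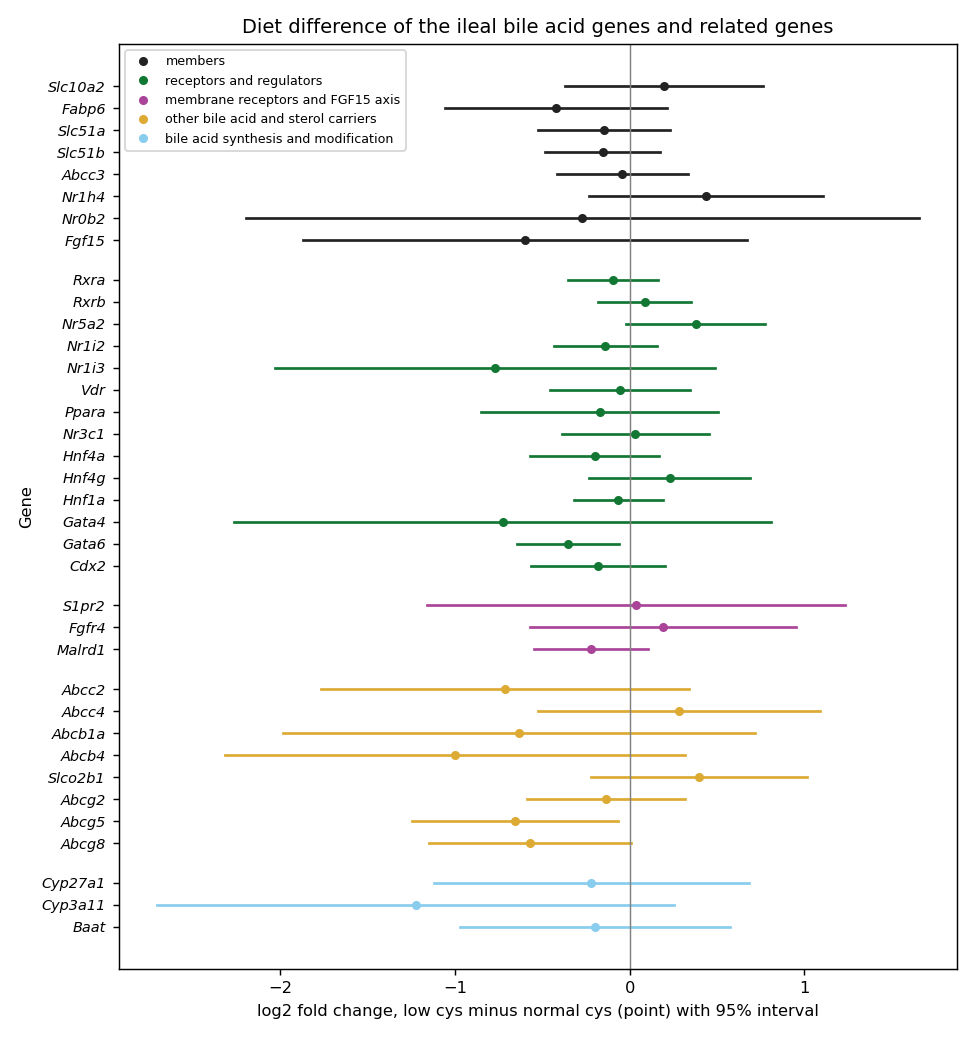
log2 fold change (low cys minus normal cys, points) with its 95% interval (lines) for the 8 ileal bile acid genes (black, named members in the key) and the 28 tested genes of the 4 related lists (colours). All 8 black lines cross 0, and among the coloured lines only those of Gata6 and Abcg5 do not.

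The genes whose level followed Slc10a2, Fabp6, Nr1h4 and Fgf15 most closely from mouse to mouse were sought among 8624 genes with at least 10 CPM, as the smallest root mean square difference of centred log2 CPM over the 7 libraries. For Slc10a2 these were Cyp51, an enzyme of cholesterol synthesis (0.124), Fam13b (0.133) and Capn8, a calpain protease (0.146). For Fabp6 they were Cmpk2, a nucleotide kinase (0.104), Mapre3, a microtubule-binding protein (0.108), and the aldo-keto reductase Akr1b7 (0.116). Nr1h4 was matched best by Ddah1 (0.181), the keratin Krt7 (0.193) and Oxct1, an enzyme of ketone body use (0.198). Fgf15 was matched best by the carboxylesterase Ces2a (0.227), the aldehyde dehydrogenase Aldh1a7 (0.244) and the cytochrome P450 Cyp2c65 (0.288). None of the other bile acid genes was among these closest genes, and their best ranks are out of the 8624 compared. Nr0b2, below 10 CPM, was not compared. The measure also grows when genes rise and fall together to different degrees. Abcc3 was at rank 198 for Slc10a2, Slc51a at rank 955 for Fabp6, Slc10a2 at rank 183 for Nr1h4 and Fabp6 at rank 112 for Fgf15.

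The tissue label was checked against marker genes. Of the distal ileum genes outside the 8, the vitamin B12 receptor subunits Cubn and Amn and the hormone genes Pyy, Gcg and Nts together reached 1076 to 2505 CPM in normal cys and 1072 to 1879 CPM in low cys. The estimates were lower for 4 of these 5 and higher for Gcg, whose groups did not overlap (13.4 to 25.1 CPM in normal cys, 27.2 to 42.2 CPM in low cys, edgeR unadjusted p = 0.00647, adjusted p = 0.794). The 3 colon markers never exceeded 6 counts, summing to at most 0.409 CPM. Proximal small intestine genes summed to 517 to 1453 CPM in normal cys and 306 to 1079 CPM in low cys. Their estimates were higher for 3 and lower for 5 of 8. Normal cys 3 (1453 CPM) and low cys 3 (1079 CPM) stood highest, followed by normal cys 4 (762 CPM). Lct (897 and 599 CPM) and Fabp1 (427 and 351 CPM) were the largest parts of the sums of normal cys 3 and low cys 3. Those same libraries, normal cys 3 and low cys 3, were the lowest for Slc10a2 (184 and 221 CPM). Pyy was lowest in low cys 3 (16.8 CPM), but Cubn, Amn, Gcg, Nts and Fabp6 had their lowest values in other libraries. In normal cys 3, Cubn was at 1851 CPM and Amn at 214 CPM, its highest value. A link to the position sampled along the intestine was not tested. The column label of normal cys 3 differs in form from those of the other libraries, and its meaning is not given. Hepatocyte genes summed to 9.61 to 21.5 CPM and 9.69 to 11.6 CPM. Which cells held the 8 genes was not measured in these bulk scrapings. The 9 enterocyte markers, such as Alpi, Fabp2 and Sis, all had lower estimates (median -0.41, 2 with an unadjusted edgeR p under 0.05). These markers summed to between 34365 and 47661 CPM in normal cys and between 20088 and 32875 CPM in low cys. Genes of all epithelium summed to 13681 to 14832 CPM and 11292 to 13280 CPM, lower for 6 of 7. For enterocytes, all epithelium and stroma, the mean log2 CPM of the list did not overlap between the diets. How often lists of other genes do this was not tested. Of all single genes, 6.83% did not overlap and 48.8% had a lower estimate.

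With the TMM scaling, genes of other compartments mostly had higher estimates on the low cystine diet. This held for 5 of 5 stroma genes tested (4.11 to 8.93 CPM in normal cys, 11.8 to 18.6 CPM in low cys), 6 of 6 smooth muscle genes (2.34 to 12.1 CPM and 5.63 to 38.2 CPM), 5 of 6 immune genes (88.7 to 207 CPM and 241 to 314 CPM, median 0.15) and 8 of 8 crypt and proliferation genes (119 to 309 CPM and 192 to 350 CPM, median 0.60). Jchain was the largest part of the immune sum in every library, with 32.9 to 102 CPM in normal cys and 124 to 198 CPM in low cys. Outside Jchain, the estimates of the immune genes ran from -0.16 for Cd3e to 0.55 for Lyz2. The mean log2 CPM of the immune list overlapped between the diets. The part of cell composition in the values of the 8 genes was not tested beyond the scaling to the enterocyte genes. With that scaling Slc10a2 had a log2 fold change of 0.76 (edgeR unadjusted p = 0.0200, adjusted p = 0.157) and Nr1h4 of 1.03 (edgeR unadjusted p = 0.0476, adjusted p = 0.164), while the median of all genes was 0.58. Relative to that median, Slc10a2 was at 0.19, Nr1h4 at 0.45, Fabp6 at -0.48 and Fgf15 at -0.69, so the order of the genes was that of the TMM scaling.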

How the data were processed

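The authors prepared stranded poly(A) libraries, sequenced 50-base paired reads, trimmed them (Trim Galore 0.6.5), removed rRNA reads (SortMeRNA), aligned to GRCm38 (STAR) and counted on exons (featureCounts). They deposited raw counts per gene, without normalization, beside exon length and gene position. The strand setting and the handling of reads with several matches are not given in the sources used here. Of the 50-base stretches of the transcripts, 0.842% for Slc10a2, 0.222% for Fgf15 and 0.0% for the other 6 genes occur in another gene.

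Counts were filtered with filterByExpr (minimum count 10, minimum total count 15), TMM-scaled and fitted in edgeR 4.0.16 (R 4.3.3; quasi-likelihood F-test, robust option), with Benjamini-Hochberg adjustment over 14869 genes. Log2 CPM used a prior count of 2. DESeq2 1.42.0, limma-voom (limma 3.58.1), other scalings and filters, and leaving out each library were the alternatives. The fits were tested on simulated data. No 2 libraries were duplicates (smallest chi-square per degree of freedom 22.3). Labels give separate mice but no batch, so no batch was examined. The genes and lists were chosen with earlier results of these data known. Named are the 8 genes, pathway genes with an unadjusted p under 0.05 or the highest level per length in their list, and the 3 genes closest in pattern to Slc10a2, Fabp6, Nr1h4 and Fgf15. Abcg8, Malrd1's separation, Cyp7a1, Slc10a1, Klb, Fgfr4, Baat, Gcg, Jchain, Cd3e, Lyz2, Anpep and Fabp2 were picked after their values were seen. So were Lct, Fabp1 and the single values of Cubn, Amn and Pyy. Promoter sequences are from RefSeq (GRCm38.p6). A gene of a marker list is not reported here.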

Additional observations from a re-analysis of the deposited data

Results flagged for a closer look

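Within groups of 4, 21 values were examined for a mouse that stands apart from the other 3 (gap to the nearest value divided by the range, against Dixon's 95% critical value), of which chance would flag about 1 in 20, or 1.05, and 2 were flagged. For log2 CPM of Slc51b, normal cys 3 (270.0 CPM) lay apart below the other normal cys mice (324 to 328 CPM), with a gap of 0.944 of the range. For the log2 ratio of Slc51a to Slc51b, normal cys 1 (0.806) lay apart below the others (1.07 to 1.09), with a gap of 0.933 of the range.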

How the results depend on the processing

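With 4 and 3 mice the intervals of the 8 genes are wide, and a p above the threshold does not show equal levels. No gene of the 8 and no pathway gene had an adjusted p under 0.05 in any setting run. Over all genes this count was 0 with edgeR, 16 with DESeq2 and 10 with scaling to the enterocyte genes, and 0 to 1 with 1 library left out (1 without normal cys 2). Scaling to the enterocyte genes gave positive log2 fold changes for Abcc3 (0.50), Fabp6 (0.10), Nr0b2 (0.25), Slc51a (0.41) and Slc51b (0.40), with the median of all genes moved to 0.58. Scaling to total counts gave 0.10 for Abcc3, with that median at 0.15. Leaving out 1 library gave -0.15 to 0.0752 for Abcc3 and -1.23 to 0.65 for Nr0b2, and kept the sign of the other 6 genes. Nr0b2 was not tested when 10 counts were required in every library. At an unadjusted p under 0.05, 396 genes were higher and 421 lower with TMM, 911 and 126 with total counts, and 4473 and 8 with scaling to the enterocyte genes. This count of all genes was 258 without low cys 1, 403 without normal cys 3, 522 without low cys 3 and 1763 without normal cys 1. Among pathway genes it was 2 with edgeR, 4 with limma-voom, 5 with the enterocyte scaling and 0 to 5 with 1 library left out. Taking the median in place of the mean of a marker list also left 3 of the marker lists without overlap. No paired analysis was possible because the labels give no replicate numbers, and the numbers used here were assigned only to name the mice.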
